A study of Solanum lycopersicum with 15 samples.

Results

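The genes described here are 86 tomato genes whose transcripts were less abundant in *slexo1* hairy roots and more abundant in *slscz* hairy roots than in wild-type hairy roots, so that the 2 mutants lay on opposite sides of the wild type. They were chosen by measured values. Counts were scaled to each library's total (counts per 1000000, CPM), and log2(CPM + 1) was averaged over the libraries of a genotype. A gene was taken where the wild-type mean was at least 2, the *slexo1* mean at least 0.4 lower, the *slscz* mean at least 0.4 higher, and every *slscz* library above every *slexo1* library. Of the 34688 genes in the count table, 13543 reached the wild-type minimum and 86 (0.248% of the table) met all conditions. The last condition alone held for 5.51% of the 16189 genes that were tested. The same rule with the mutants exchanged took 283 genes.

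The material was hairy roots of *Solanum lycopersicum* cv. M82, which are roots formed after infection with *Rhizobium rhizogenes*. The *slexo1* group held the edited lines *slexo1-hr6* and *slexo1-hr7*, and the *slscz* group held the edited lines *slscz-hr5* and *slscz-hr12*, with 3 libraries a line and 6 a genotype. The wild type, with 3 libraries, was M82 transformed by the same bacterium without a vector, so the mutants differ from it also in carrying the editing construct. Each mutant line is 1 subcloned root culture, and each library pooled root tips of 1 culture, so the spread between libraries does not measure the spread between independent edits.

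The exodermis is the cortical cell layer just beneath the root epidermis. In tomato its cells lay down a cap of lignin on the face towards the epidermis, a barrier to the movement of solutes through cell walls, much as the Casparian strip is in the endodermis further in. *SlEXO1* (*Solyc09g011120*) encodes a C2H2 zinc finger protein, a class of DNA-binding transcription factors, and *SlSCZ* (*Solyc04g078770*) is the tomato homologue of *Arabidopsis* SCHIZORIZA, a factor of the heat shock type known there for setting cell identity in the layers around the vasculature. The study edited both genes to ask how each bears on where the lignin cap forms.

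The guides used for the edited lines are shown because the rule rests on which gene was edited. Not every guide left an edit. At *SlEXO1* guide 1 both *slexo1* lines were recorded as wild type, as was *slscz-hr5* at *SlSCZ* guide 1. Both *slscz* lines were recorded with a deletion from guide 1 to guide 2, located from exon 1 to exon 2. Each is written from the 5′ end, and the capitals mark the 3 bases at the 3′ end, nearest to the cleavage site. The last sequences of the *SlEXO1* set are those read in *slexo1-hr6* and *slexo1-hr7* at guide 2, with the longest run shared with that guide in capitals.
SlEXO1 guide 1: gcttttgctgaagatgcAGC
SlEXO1 guide 2: gagcacttggagggtgtATA
SlEXO1 guide 3: tgcctctggggttccaaTTA
slexo1-hr6 at guide 2: CACTTGGAGGGTGTtatatggccaccaag
slexo1-hr7 at guide 2: GGAGGGTGTttggaaccccagag
SlSCZ guide 1: tattgtttcttggggtgAAG
SlSCZ guide 2: cattcatatcatacgggTTC
SlSCZ guide 3: acccgagtaattataacCCG
The run shared with guide 2 ended at the same guide base in both lines. It was 14 bases long in *slexo1-hr6* and 9 bases long in *slexo1-hr7* because the printed sequences begin at different bases. After the run the 2 printed sequences differ. The edit was recorded as an insertion of 1 base in *slexo1-hr6* and as multiple mutations in *slexo1-hr7*, at guide 2 and at guide 3 alike. The identifiers place *SlEXO1* on chromosome 9 and *SlSCZ* on chromosome 4.

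Reads came from the 3′ ends of transcripts, so a value does not scale with transcript length, and an edit near the start of a gene need not lower it. *SlEXO1* had between 18 and 27 counts in *slexo1* libraries, between 1 and 23 in *slscz* libraries and between 10 and 21 in wild-type libraries. *SlSCZ* had between 18 and 39 counts in *slexo1* libraries, between 18 and 31 in *slscz* libraries and between 15 and 53 in wild-type libraries. Neither edited gene was called in any comparison and neither is among the 86. The libraries held between 2726538 and 8942833 counts (median 4800487). In bulk roots, fewer cells of a type and less RNA per cell cannot be told apart.

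In the 86 genes the fall in *slexo1* ran from 0.40 to 2.49 on the log2 scale, with a median shift of -0.67, and the rise in *slscz* ran from 0.40 to 3.60, with a median shift of 0.76. Scaling by library total moved the median of all 16189 tested genes by 0.13 in *slexo1* and by 0.05 in *slscz*, and relative to that the median shifts of the 86 were -0.80 and 0.72. The *slexo1* fall was the larger shift in 34 genes and the *slscz* rise in 52. On a scale with *slexo1* at 0% and *slscz* at 100%, the wild-type mean lay at 47.1% in the median gene, and between 20.8% and 82.1% over all 86. Only 5 genes moved by at least 1 in both mutants, against 16 that did so in *slexo1* and 24 in *slscz*. These values chose the genes and carry no test.

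**Figure D1:**
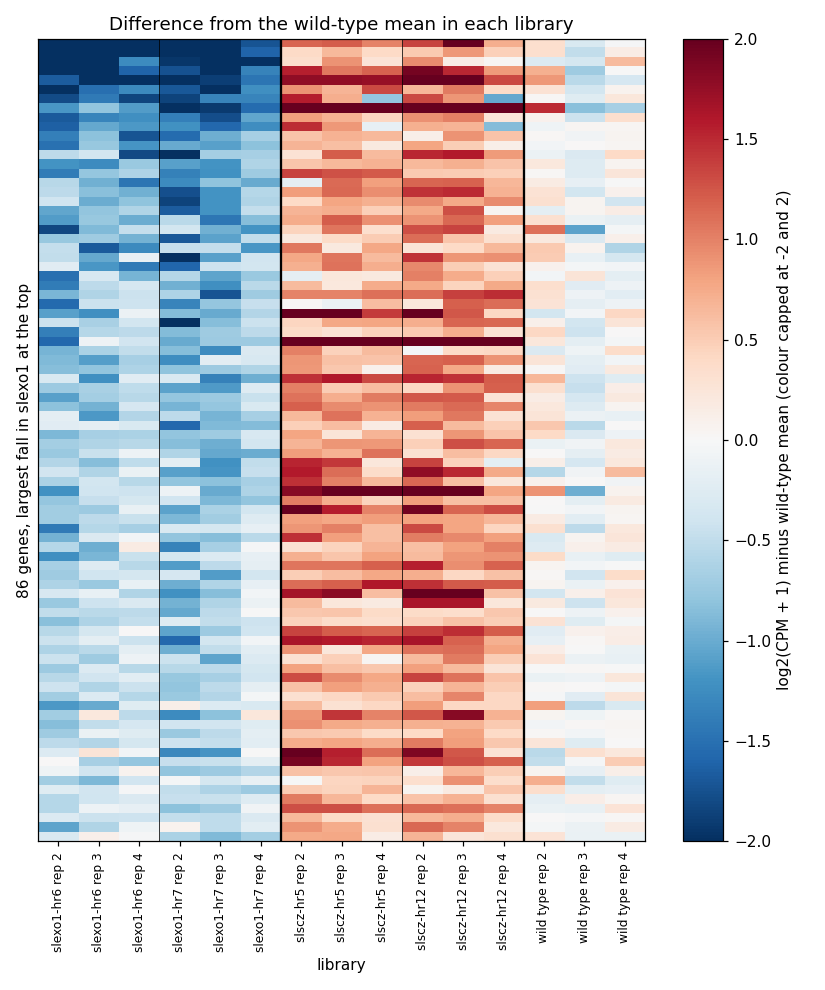
Each row is 1 of the 86 genes, ordered by its fall in *slexo1*, and each column 1 library, with *slexo1* left, *slscz* in the middle and wild type right. The colour is log2(CPM + 1) minus the mean of the 3 wild-type libraries, capped at -2 and 2, and the sign of the *slexo1* and *slscz* blocks follows from the rule.

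**Figure D2:**
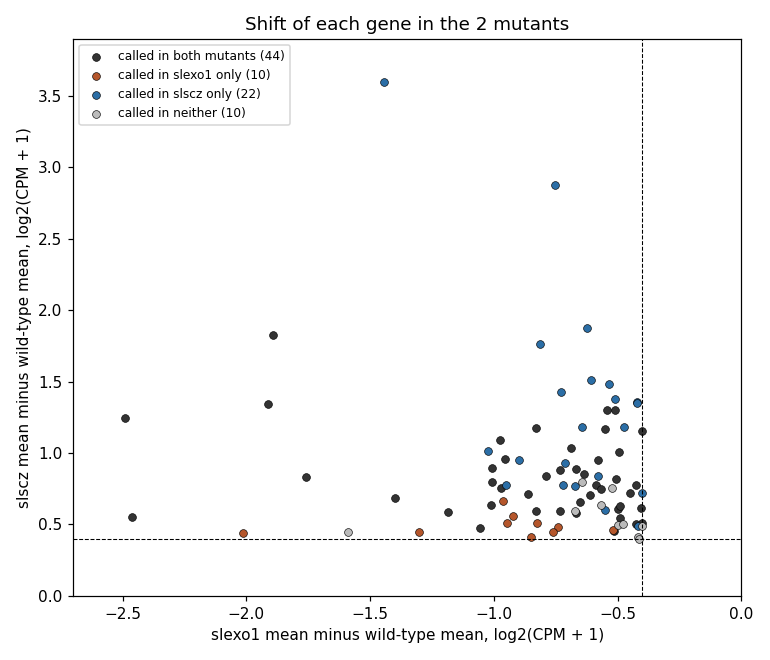
Each point is 1 of the 86 genes, with the shift in *slexo1* on the x axis and the shift in *slscz* on the y axis, both in log2(CPM + 1) against the wild-type mean. Dashed lines mark the threshold of 0.4, and colours show in which mutant the gene was called, 44 in both, 10 in *slexo1* only, 22 in *slscz* only and 10 in neither.

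The genes spanned a wide range of levels. Over the genes the *slexo1* mean lay between 0.240 and 939 CPM (median 9.54), the *slscz* mean between 5.10 and 2104 CPM (median 31.1) and the wild-type mean between 3.33 and 1271 CPM (median 16.2). For comparison, the median wild-type level of all tested genes that reached the same minimum was 19.0 CPM. The most abundant, named for that reason after its values were seen, was *Solyc02g092790*, with 939 ± 126 CPM in *slexo1* (SD, n = 6), 2104 ± 185 CPM in *slscz* (SD, n = 6) and 1271 ± 44.5 CPM in wild type (SD, n = 3). Wild-type means were over 100 CPM in 17 genes and under 10 CPM in 32.

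Since 6 libraries stand for each mutant, the lowest, the median and the highest are given for the leading genes, which are those with the largest value of the smaller of their shifts. *Solyc09g008320* had 6.33, 8.60 and 12.3 CPM in *slexo1* and 90.6, 124 and 183 CPM in *slscz*, against 66.0, 24.2 and 28.0 CPM in the 3 wild-type libraries. The 3 genotypes did not overlap, and wild-type replicate 2 was more than a factor of 2 above the other wild-type libraries. The shifts were -1.89 in *slexo1* and 1.82 in *slscz*, and without that wild-type library they were -1.46 and 2.26. The *slscz* mean was 14.6 times the *slexo1* mean.

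*Solyc12g042980* had 0, 0.731 and 1.54 CPM in *slexo1* and 31.6, 48.0 and 113 CPM in *slscz*, against 11.3, 1.45 and 1.78 CPM in wild type. Its rise in *slscz* was the largest of the 86, with a shift of 3.60, and no wild-type library reached a *slscz* library. In *slexo1* it overlapped with wild type. Its *slexo1* libraries held 0 to 6 counts, and without wild-type replicate 2 the *slexo1* shift was -0.70, against -1.44 with it.

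*Solyc06g007960* had 2.38, 4.20 and 8.06 CPM in *slexo1* and 49.0, 67.7 and 119 CPM in *slscz*, against 37.0, 23.3 and 28.5 CPM in wild type. Its fall in *slexo1*, with a shift of -2.49, was the largest of the 86, and the 3 genotypes did not overlap. *Solyc05g005680* had 1.80, 2.81 and 4.70 CPM in *slexo1* and 25.0, 35.8 and 53.1 CPM in *slscz*, against 22.7, 7.83 and 13.4 CPM in wild type. It showed the same order without overlap, with shifts of -1.91 and 1.34.

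Among more abundant genes, *Solyc10g009150* had 73.2, 134 and 175 CPM in *slexo1* and 406, 519 and 707 CPM in *slscz*, against 306, 195 and 265 CPM in wild type. *Solyc04g079520* had 50.3, 72.6 and 95.0 CPM in *slexo1* and 231, 261 and 323 CPM in *slscz*, against 173, 126 and 122 CPM in wild type. In both genes the shifts were close to symmetric, -0.98 and 1.09 in the first and -0.95 and 0.96 in the second, and no library of 1 genotype reached into another. *Solyc02g077420* had 42.4, 83.3 and 109 CPM in *slexo1* and 333, 441 and 639 CPM in *slscz*, against 313, 196 and 269 CPM in wild type. Its shift was larger in *slexo1* (-1.76) than in *slscz* (0.83), and its counts were not whole numbers in any of the 15 libraries, which marks reads shared with another gene. A value was taken as not whole at any distance from a whole number above 0.

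*Solyc05g047580* had 10.1, 14.0 and 18.4 CPM in *slexo1* and 40.2, 55.0 and 74.1 CPM in *slscz*, against 29.0, 23.7 and 33.8 CPM in wild type. *Solyc01g105720* had 0.997, 3.16 and 3.91 CPM in *slexo1* and 12.1, 13.2 and 17.3 CPM in *slscz*, against 7.17, 5.14 and 4.67 CPM in wild type. The genotypes were separate in these genes as well. *Solyc05g052280* had 0.253, 2.34 and 3.09 CPM in *slexo1* and 5.50, 9.89 and 14.9 CPM in *slscz*, against 3.88, 3.35 and 6.01 CPM in wild type, and here 1 *slscz* library lay inside the wild-type range.

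*Solyc10g074826* was the most variable of the leading genes in *slscz*. It had 23.7, 29.2 and 52.2 CPM in *slexo1* and 76.0, 200 and 463 CPM in *slscz*, against 43.9, 54.3 and 75.9 CPM in wild type. The lowest *slscz* library, *slscz-hr12* replicate 4, lay just above the highest wild-type library, and *slexo1* overlapped with wild type. *Solyc03g097570*, also among the leading 12, had 1.36, 5.75 and 9.17 CPM in *slexo1* and 16.4, 20.01 and 29.6 CPM in *slscz*, against 15.02, 9.13 and 7.79 CPM in wild type, again with *slexo1* reaching into the wild-type range.

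**Figure D3:**
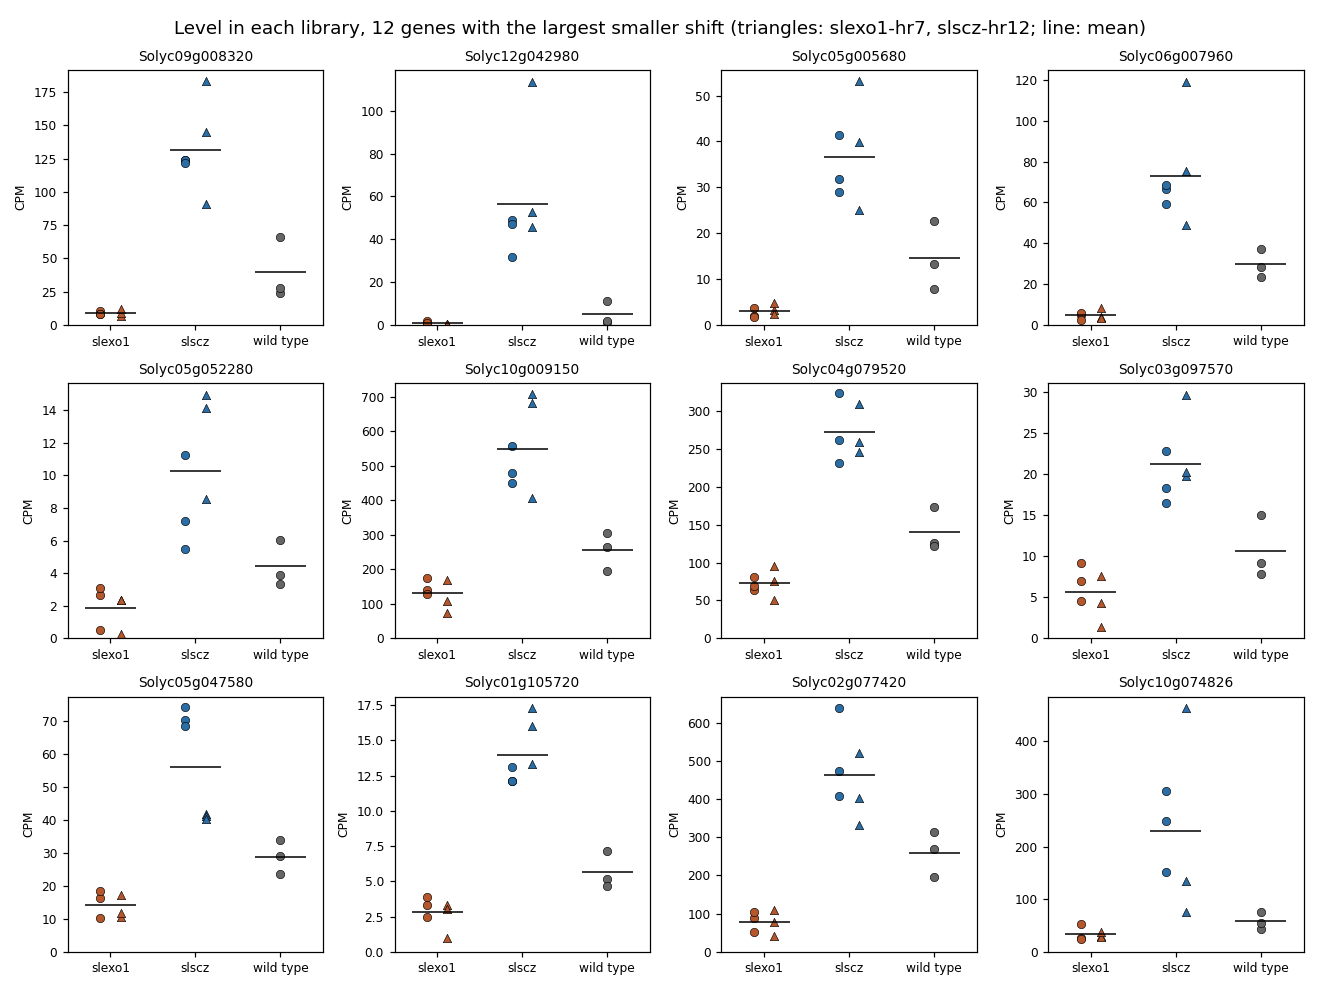
The 12 panels show the level in CPM of the 12 leading genes in each library, *slexo1* left, *slscz* in the middle and wild type right, each on its own linear axis from 0. Triangles are *slexo1-hr7* and *slscz-hr12*, circles the other line or wild type, and lines the group means. In *Solyc05g047580* the 3 *slscz-hr12* libraries lie together near 41 CPM, below the 3 *slscz-hr5* libraries.

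Some genes moved far in 1 mutant and little in the other, and 3 of them are named here after their values were seen. *Solyc09g098620* had 5.98, 10.9 and 19.1 CPM in *slexo1* and 80.0, 85.7 and 111 CPM in *slscz*, against 76.7, 42.7 and 67.2 CPM in wild type, with shifts of -2.46 and 0.55. Without wild-type replicate 3 its *slscz* shift was 0.31, under the threshold. *Solyc05g014000* had 0, 0.0840 and 1.02 CPM in *slexo1* and 3.96, 4.99 and 8.27 CPM in *slscz*, against 2.99, 2.80 and 6.46 CPM in wild type. It was 1 of 3 genes with a *slexo1* mean under 1 CPM, and its *slscz* and wild-type libraries overlapped. In the opposite manner, *Solyc12g011023* had 1.15, 2.84 and 4.93 CPM in *slexo1* and 36.9, 41.3 and 76.3 CPM in *slscz*, against 6.44, 4.58 and 5.19 CPM in wild type. Its *slscz* mean was 8.74 times the wild-type mean, and 1 *slexo1* library lay inside the wild-type range.

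Next, the separation of single libraries from wild type was counted, which the rule did not demand. Every *slexo1* library lay below every wild-type library in 50 of the 86 genes, against 5.02% of all tested genes. Every *slscz* library lay above every wild-type library in 58, against 10.8% of all tested genes. Complete order, with all *slexo1* below all wild-type and all wild-type below all *slscz* libraries, was found in 35 of the 86, against 0.488% of all tested genes, and 13 genes overlapped with wild type on both sides. Because the rule used the means of the same libraries, these counts describe the choice.

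All 86 genes passed the filter on low counts. A call here means a limma-voom p, adjusted by Benjamini-Hochberg, no higher than 0.05 together with 1.3-fold or more of change. In *slexo1* against wild type, 54 of the 86 were called lower (4.95% of all tested genes were), and in *slscz* against wild type 66 were called higher (6.84% of all tested genes were). Both calls were met by 44 of the 86, 10 met neither, and 0.327% of all tested genes, 53 in number, met both. The 86 were all called higher in *slscz* than in *slexo1*, as were 11.0% of all tested genes. Nothing is read from these counts, since the rule used the contrasts, and the comparisons with wild type share the same 3 wild-type libraries. Without wild-type replicate 3 the count called higher in *slscz* was 32. Over the fits that left out 1 library, between 37 and 60 were called lower in *slexo1*.

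The thresholds cut through a continuous range. Just inside the *slexo1* threshold were *Solyc07g160360* (shifts -0.40 and 0.49) and *Solyc12g009840* (-0.40 and 0.72), and just outside it *Solyc03g044060* (-0.39 and 0.62) and *Solyc02g086840* (-0.38 and 0.47). Just inside the *slscz* threshold were *Solyc06g069590* (-0.41 and 0.40) and *Solyc05g005320* (-0.42 and 0.41), and just outside it *Solyc04g007690* (-0.40 and 0.40 after rounding) and *Solyc09g083290* (-0.44 and 0.39). *Solyc05g005320* had 14.0, 5.48 and 6.68 CPM in wild type, and without the first of these libraries its *slexo1* shift was -0.05. When the rule was applied without each of the 15 libraries in turn, 48 of the 86 were taken every time, and *Solyc06g069590* in 5 of the 15 runs, the fewest.

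The lines of a genotype were then compared, because the rule averaged over them and asked nothing of their difference, although its demand that no *slexo1* library reach a *slscz* library bounds how far the lines of a genotype can part. Each of the 86 genes was lower in both *slexo1* lines and higher in both *slscz* lines than the wild-type mean. In *slexo1-hr7* the shift was at least 0.4 downwards in 76 genes and in *slexo1-hr6* in 72, and both lines passed in 62. In *slscz-hr12* it was at least 0.4 upwards in 81 genes and in *slscz-hr5* in 78, and both passed in 73. All 4 lines passed in 52 genes. The smallest shift of a single line was -0.02 in *slexo1-hr6* and 0.08 in *slscz-hr5*. Because the rule used the mean over both lines of a genotype, the signs and counts of single lines largely describe the choice.

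**Figure D4:**
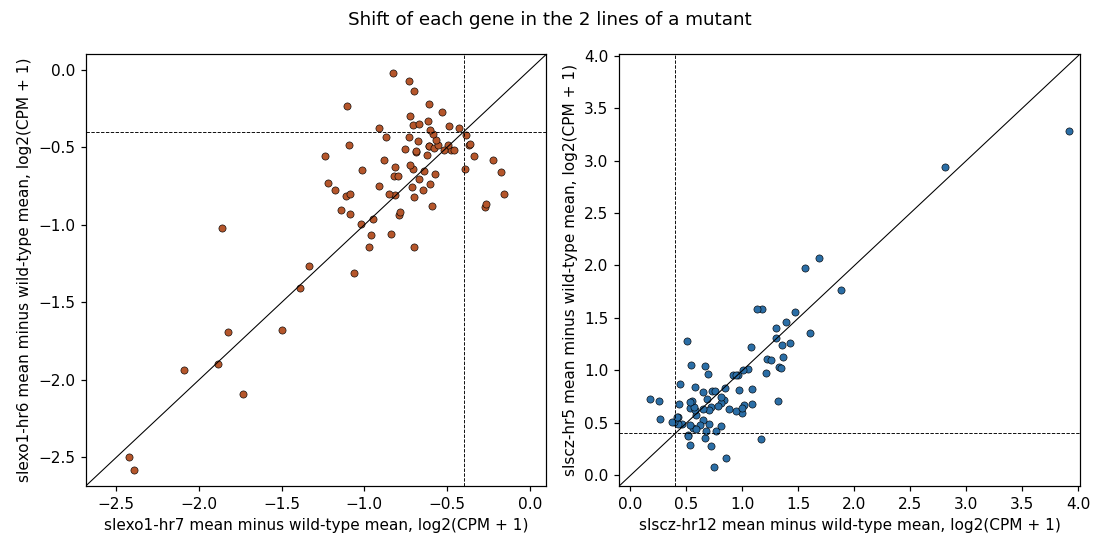
Each point is 1 of the 86 genes, with the shift of *slexo1-hr7* against that of *slexo1-hr6* on the left and of *slscz-hr12* against that of *slscz-hr5* on the right, all in log2(CPM + 1) against the wild-type mean. The solid line marks equal shifts and dashed lines a shift of 0.4, and 62 and 73 of the genes pass it in both lines of *slexo1* and of *slscz*.

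In *slexo1-hr7* against *slexo1-hr6*, 0 of the 86 genes were called in either direction by limma-voom, against 0.346% of all tested genes. At an unadjusted p under 0.05 there were 8 (7.19% of all tested genes), and edgeR and DESeq2 called 0 as well. In *slscz-hr12* against *slscz-hr5*, 0 of the 86 passed, against 0.105% of all tested genes. There 7 had an unadjusted p under 0.05 (4.77% of all tested genes), edgeR called 0 and DESeq2 called 1, *Solyc05g047580*. A call at these shares would be rare in 86 genes whatever they were. The median absolute log2 difference between lines was 0.21 in the 86 and 0.15 in all tested genes for *slexo1*, and 0.17 and 0.15 for *slscz*. Differences over 0.5 were found in 19 of the 86 for *slexo1* (9.55% of all tested genes) and in 10 for *slscz* (11.0% of all tested genes).

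*Solyc05g047580* had the lowest adjusted p between lines. It had 41.6, 41.0 and 40.2 CPM in *slscz-hr12*, against 74.1, 70.3 and 68.4 CPM in *slscz-hr5*, and the lines did not overlap. The log2 difference was -0.83 ± 0.16 (SE), with a limma-voom adjusted p of 0.0533, which missed the threshold. The adjusted p was between 0.00887 and 0.239 over the alternatives, the lowest by DESeq2. Both lines lay above the wild-type libraries, whose highest value was 33.8 CPM. Between the *slexo1* lines the lowest adjusted p was that of *Solyc06g069420*, which had 19.0, 19.8 and 21.8 CPM in *slexo1-hr7*, against 31.4, 25.2 and 35.0 CPM in *slexo1-hr6*. Its log2 difference was -0.58 ± 0.16 (SE), with a limma-voom adjusted p of 0.239. The *slexo1-hr6* values lay within or near the wild-type values of 34.6, 29.6 and 36.3 CPM.

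Single libraries differed in how far the 86 genes stood from wild type. The median difference from the wild-type mean was -0.91, -0.83 and -0.46 in *slexo1-hr7* replicates 2, 3 and 4, and -0.72, -0.64 and -0.49 in those of *slexo1-hr6*. It was 0.95, 0.91 and 0.56 in the replicates 2, 3 and 4 of *slscz-hr12*, and 0.83, 0.77 and 0.68 in those of *slscz-hr5*. In each of the 4 mutant lines the library numbered 4 was thus the one nearest to wild type. By its sample title, that library of *slexo1-hr7* is replicate 3. The gap between *slscz* and *slexo1* libraries of the same number was smallest for number 4 in 71 of the 86 genes, with a median of 1.13, against 1.83 for number 2 and 1.59 for number 3. The labels do not say whether a number marks a shared day or batch. The totals of these 4 libraries, 4800487 to 5955723 counts, lay in the upper part of the range of the other mutant libraries. Replicate 4 had the highest total in *slexo1-hr6* and *slscz-hr12*, and in *slexo1-hr7* and *slscz-hr5* only replicate 3 was higher. Whether depth bears on the narrower gap was not tested.

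The 283 genes of the exchanged rule, higher in *slexo1* and lower in *slscz*, had a gap between *slexo1* and *slscz* of 1.84, 1.53 and 1.12 in the libraries numbered 2, 3 and 4, so the narrower gap was not particular to the 86. Without the 4 mutant libraries numbered 4 the rule took 152 genes, 83 of the 86 among them, whereas it took 76 without those numbered 2 and 82 without those numbered 3. In wild type, replicate 3 was lowest in 54 of the 86 genes and replicate 2 highest in 45. Replicate 3 lay 0.16 below the wild-type mean in the median gene, against 0.02 below in all tested genes.

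**Figure D5:**
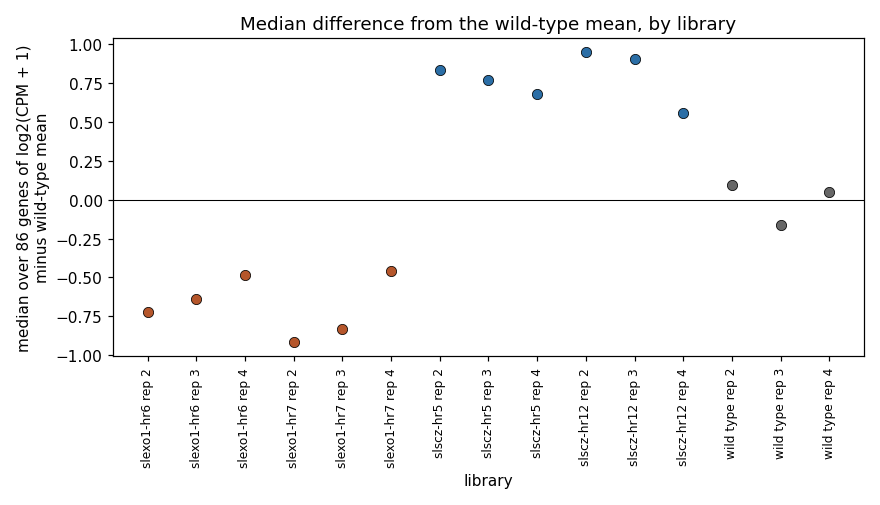
Each point is 1 library, *slexo1* left, *slscz* in the middle and wild type right, and the y axis is the median over the 86 genes of log2(CPM + 1) minus the wild-type mean. The libraries numbered 4 lie nearest to 0 in all 4 mutant lines, at -0.49 and -0.46 in *slexo1* and at 0.56 and 0.68 in *slscz*.

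By their identifiers the 86 genes were spread over all 12 chromosomes, with between 4 on chromosome 9 and 13 on chromosome 3. Chromosome 5 held 12 of the 86 (14.0%, where it held 6.68% of the tested genes with the same wild-type minimum), and chromosome 1 held 5 (5.81%, where it held 13.2%). Consecutive rows of the table were members at 2 places. On chromosome 3, *Solyc03g097570*, *Solyc03g097580* and *Solyc03g097600* followed each other, with *slexo1* shifts of -0.90, -0.97 and -0.83 and *slscz* shifts of 0.95, 0.76 and 0.51. The next gene, *Solyc03g097610*, was lower in both mutants, with shifts of -0.44 and -0.57, and *Solyc03g097550* before them shifted by 0.18 and -0.19.

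*Solyc03g097580* had 1.52, 3.93 and 5.94 CPM in *slexo1* and 11.0, 14.6 and 16.7 CPM in *slscz*, against 10.5, 8.50 and 6.01 CPM in wild type. *Solyc03g097600* had 14.9, 29.7 and 34.0 CPM in *slexo1* and 42.0, 62.2 and 106 CPM in *slscz*, against 55.7, 40.2 and 42.7 CPM in wild type. The first of these was in complete order and the second overlapped with wild type in *slscz*. Counts of *Solyc03g097570* and *Solyc03g097600* were whole in none of the 15 libraries, so reads there were shared with other genes and their values are uncertain, whereas those of *Solyc03g097580* were whole throughout. On chromosome 8, *Solyc08g079080* had 47.1, 70.8 and 99.2 CPM in *slexo1* and 223, 242 and 276 CPM in *slscz*, against 83.9, 105 and 109 CPM in wild type. Its neighbour *Solyc08g079090* had 148, 166 and 184 CPM in *slexo1* and 279, 341 and 459 CPM in *slscz*, against 196, 243 and 228 CPM in wild type. Both were above all wild-type libraries in *slscz*, and only the neighbour was below them all in *slexo1*.

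Reads shared between genes touched 16 of the 86 genes (18.6%) in at least 1 library, against 13.9% of all tested genes. In 5 genes no library of the 15 had a whole value, *Solyc02g092790* and *Solyc02g077420* among them, and *Solyc12g011023* had such values in 14.

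The genes outside the 86 whose values followed them most closely over the 15 libraries were *Solyc10g081720* (Pearson r = 0.979 with the mean standardised value of the 86), *Solyc05g006855* (0.978), *Solyc06g063240* (0.976), *Solyc07g005330* (0.974) and *Solyc09g064370* (0.968). The libraries share their genotypes, so these values are a description and carry no p. *Solyc10g081720* failed the rule by its *slscz* shift, 0.31, with -0.54 in *slexo1*. *Solyc05g006855* passed both shifts, with -0.95 and 1.02, but had a wild-type mean of 1.39, under the minimum, and its *slscz* and *slexo1* libraries overlapped.

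Finally, the 86 were compared with the genes that the study names by identifier. None of 9 genes of endodermal differentiation and none of 20 exodermis-enriched transcription factors of the study's hairy root screen was among them. Only 8 of the 9 and 19 of the 20 were in the count table. Some of those, such as *Solyc02g088160* at 0.65 CPM in wild type, lay under the rule's minimum. The 86 were 0.635% of the genes that reached it, so a member would be rare in lists of this size whatever their genes. Of the 9, 7 were tested by limma-voom, 2 were called lower in *slexo1* and 2 lower in *slscz* than in wild type. *SlCASP1* (*Solyc06g074230*), a homologue of the scaffold proteins of the Casparian strip, had 12.1 to 19.9 CPM in *slexo1* and 19.4 to 36.4 CPM in *slscz*, against 22.5 to 31.8 CPM in wild type. It fell in *slexo1* by 0.98 on the log2 scale (SE 0.20, limma-voom adjusted p 0.00324) and was not called in *slscz*.

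*SlCASP3* (*Solyc09g010200*), of the same family, had 24.9 to 45.2 CPM in *slexo1* and 46.9 to 80.3 CPM in *slscz*, against 44.8 to 57.1 CPM in wild type. It fell in *slexo1* by 0.74 on the log2 scale (SE 0.18, limma-voom adjusted p 0.0120). Its rise in *slscz*, 0.21 (SE 0.17), was not called, so its means had the order of the 86 with a call on 1 side only. *SlMYB36* (*Solyc07g006750*), homologous to the *Arabidopsis* MYB factor that switches on Casparian strip genes, had 10.2 to 16.2 CPM in *slexo1* and 5.14 to 10.6 CPM in *slscz*, against 12.2 to 15.5 CPM in wild type, and was called lower in *slscz* only. No gene of this list showed the order of the 86 with calls on both sides. Of the 20 factors, 15 were tested, with 3 called lower and 2 higher in *slexo1*, and 5 called lower and 2 higher in *slscz*. Over all tested genes 3.89% were called higher in *slexo1* and 8.37% lower in *slscz*. The largest fall in *slexo1* on that list was in *SlNUC* (*Solyc09g074780*), with a log2 difference of -2.45 (SE 0.37, limma-voom adjusted p 0.000240) and 1 to 9 counts in *slexo1*, 11 to 31 in *slscz* and 27 to 39 in wild type. *SlMYB54* (*Solyc10g081320*) had 3.04 to 5.81 CPM in *slexo1* and 7.70 to 12.8 CPM in *slscz*, against 6.60 to 10.75 CPM in wild type. Its means had the order of the 86. It was called lower in *slexo1*, with a log2 difference of -1.07 (SE 0.22, limma-voom adjusted p 0.00378). In *slscz* the difference, 0.22 (SE 0.19), was not called. *SlNAC041* (*Solyc01g009860*) was called on both sides in the order opposite to that of the 86. It had 123 to 157 CPM in *slexo1* and 54.3 to 77.5 CPM in *slscz*, against 88.9 to 100.9 CPM in wild type, with log2 differences of 0.44 (SE 0.10, limma-voom adjusted p 0.00749) and -0.53 (SE 0.10, limma-voom adjusted p 0.00144). Whether the changes of the list genes that were called have a part in those of the 86 was not tested.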

How the data were processed

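Tomato hairy roots were profiled with QuantSeq 3′ libraries made from pooled root tips. The authors trimmed the reads, pseudo-aligned them to the ITAG 4.1 cDNA with kallisto (version 0.46.2 in the submitters' processing notes) and deposited the estimated counts in 1 table, not normalized, for 34688 genes and 15 libraries. Wild-type columns are numbered 2 to 4 where the labels number the samples 1 to 3, so they were matched to the group only. For *slexo1-hr7* the sample titles say 1 to 3 and the descriptions 2 to 4, and the numbers of the descriptions were used.

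The genes were chosen on log2(CPM + 1) from unrounded counts and column totals. Tests used rounded counts, filterByExpr by genotype (minimum count 10, minimum total 15; 16189 genes), TMM, voom, lmFit, contrasts.fit and eBayes (R 4.3.3, limma 3.58.1, edgeR 4.0.16), with 3 genotype groups or 5 line groups in a single model of all 15 libraries and Benjamini-Hochberg adjustment over all tested genes. The limma functions and TMM are those the study's methods name, whereas the rounding and the filter were chosen here. P-values measure only the spread between these libraries. Leading genes were the 12 with the largest value of the smaller shift. Named beside them were neighbours, genes at the thresholds, genes with the lowest adjusted p between lines, the 5 most similar other genes, the edited genes, and from the lists only some of the genes that were called. The members and lists were chosen with earlier results of these data known. Of the identifiers, 0 matched the gene name table used here, so annotation lists, promoters and proteins were not analysed here and members carry no gene names. Guide and allele sequences came from the study's supplementary table. The alternatives tried were DESeq2 1.42.0, edgeR's quasi-likelihood test, other scalings, no filter, no fold threshold, other rule settings, a replicate block and fits without each library. Counting error only is covered by the depth, since reads carry no molecular identifiers.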

Additional observations from a re-analysis of the deposited data

Results flagged for a closer look

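In 50 groups of 6 mutant libraries (25 genes in both mutants) Dixon's test was run on log2(CPM + 1), which by chance marks about 1 in 20 groups, and 2 groups held a library that stood apart. *Solyc05g014000* had 1.02 CPM (6 counts) in *slexo1-hr6* replicate 4, where the other 5 *slexo1* libraries lay between 0 and 0.253 CPM. *Solyc06g069420* had 36.3 CPM in *slscz-hr12* replicate 2, where the other 5 *slscz* libraries lay between 47.5 and 53.5 CPM.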

How the results depend on the processing

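The rule took 114 genes with TMM scaling and 115 with DESeq2 size factors, 83 of the 86 in each case, and 86 with 0.5 in place of 1 added to CPM (81 shared). It took 35 with shifts of at least 0.6 and 52 where each line had to pass on its own. Without 1 library it took 76 to 96 genes, and without the 4 mutant libraries numbered 4, an alternative added after seeing the data, 152. Over the fits without 1 library, 37 to 60 genes were called lower in *slexo1* and 32 to 69 higher in *slscz*, the lowest without wild-type replicate 3. Between *slscz-hr12* and *slscz-hr5* these fits called 0 to 1. That 1 was *Solyc05g047580* without *slexo1-hr6* replicate 2 or 4 or *slexo1-hr7* replicate 4, and *Solyc11g072200* without *slscz-hr12* replicate 4. DESeq2 also called 1. In *slscz* against *slexo1*, all 86 were called higher in every fit run, against 11.0% of all tested genes in the main fit. The rule asked for that separation, so this count describes the choice. The cause of the changes in the other counts was not tested.

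Same-numbered libraries were not treated as pairs in the main fits, and a replicate block was run as an alternative. Of 18 same-numbered pairs, 8 correlated over 0.1 (highest 0.389), and 7 of 12 libraries correlated best with their own number. Of the 6 pairs numbered 4, 5 correlated over 0.1, and whether that number marks a shared day or batch was not tested. With a replicate block, 86, 0 and 0 of the genes were called in *slscz* against *slexo1*, between the *slexo1* lines and between the *slscz* lines. The first of these counts again describes the choice. Over all tested genes the block called 28 between the *slscz* lines, against 17 with all 15 libraries and 18 with the 12 mutant libraries and no block, a fit added after seeing the data. Of 800 shifts of named genes under the alternatives, 7 moved by more than the SD within the mutant and 0 changed sign. The 800 include fits without a library of the other mutant, which cannot move a shift, so the share that moved understates the dependence. Depth limits genes with few counts, such as *Solyc12g042980* in *slexo1*.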
